A study of Mus musculus with 12 samples.

Results

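Primary brain endothelial cells (BECs) of Cort+/+ mice were compared after oxygen-glucose deprivation with reoxygenation (OGD-R) and under normoxia and normoglycemia (NX/NG). Of the 12 samples of the series, the 6 wild-type libraries were used, 3 per environment, and all 6 entered the main test. The cells came from the brain of C57BL/6 mice, and each replicate was pooled from 3 mice. Whether 1 pool of cells was divided between the environments is not given in the sources used here. NX/NG cells were kept for 24 h at 21% O2 with 5.5 mM glucose. OGD-R cells spent 4 h at 1% O2 in medium without glucose and serum, and then 20 h at 21% O2 with 5.5 mM glucose and serum, before their RNA was taken. All cultures had been enriched for endothelium with puromycin beforehand, and the labels name no transgene in the wild-type groups. A culture in a dish holds neither blood flow nor the astrocytes and neurons that surround the vessel in the brain. The labels name a stroke model as the disease state of every sample, the untreated ones included, and call the environments NM and OGD. RNA was measured once, at the end of reoxygenation, so that the data hold no value from the deprivation itself.

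OGD-R is a culture model of ischaemia and reperfusion. Without oxygen, the HIF transcription factors are stabilised and switch on genes of glycolysis and angiogenesis, and their targets decline again when oxygen returns. Without glucose, the glucose sensors MondoA and ChREBP leave their targets, of which Txnip is the best known. Reperfused endothelium is also known for activation of immediate early genes, NF-kB and interferon signalling, for matrix proteases, and for the loss of barrier proteins.

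The authors deposited RPKM (reads per kilobase of a gene's length, relative to the size of the library) in one table per environment, each scaled on its own. The whole reads behind each value were recovered, and the 6 libraries were scaled together before RPKM was computed anew. Every RPKM below is on that joint scale. The files held 27321 genes in both tables, and 15357 of them had a mean of at least 10 reads over the 6 libraries and were tested. The 2644 genes listed only under NX/NG and the 2454 listed only under OGD-R had a mean of at most 2.33 reads and were not compared. The reads on genes were nearly equal between libraries, from 12386048 to 12389289.

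OGD-R replicate 1 stood apart from the other 5 libraries. The 18S ribosomal RNA gene Rn18s-rs5 took 0.0775% of its reads, against 7.64% to 15.8% in the others, and its Pearson correlation with them, over log2 values of all genes tested, was 0.963 to 0.974, against 0.983 to 0.989 among the others. On the first principal component (46.2% of the variance) it lay at 49.0, and the other 5 lay between -18.8 and 1.68. The study's heatmap of this transition leaves the library out. Results are therefore given with it and without it. NX/NG replicate 2 held epithelial transcripts that the other libraries nearly lacked: Krt8, a keratin of simple epithelia, was at 19.0 RPKM there and at 0.124 to 0.450 RPKM in the other 5, and the 8 epithelial markers summed to 64.7 RPKM against 3.32 to 7.96 RPKM. The part of either difference in the results was not tested beyond leaving each library out.

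**Figure D1:**
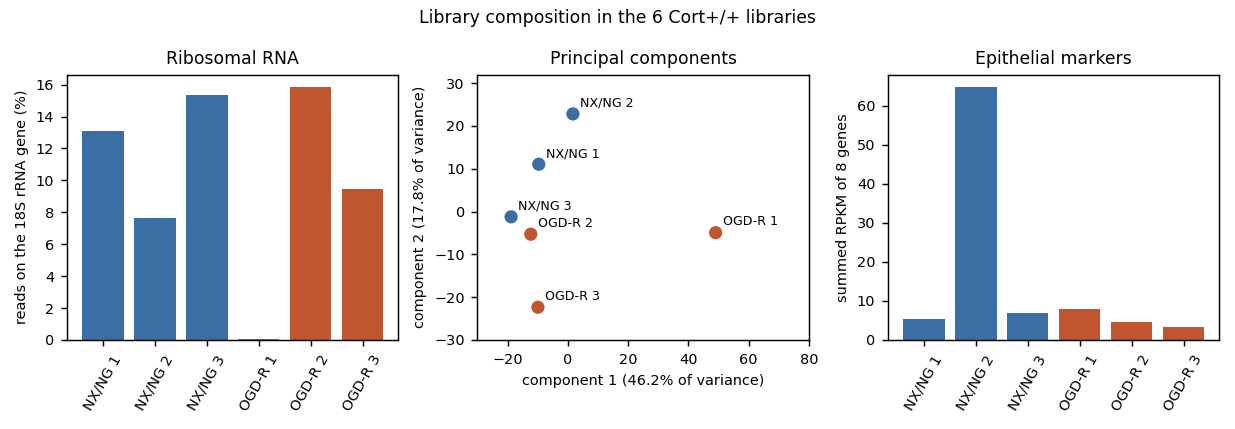
Left, percent of reads on genes that fell on the 18S rRNA gene; middle, the first and second principal components of log2(RPKM + 0.1); right, summed RPKM of 8 epithelial markers (blue, NX/NG; orange, OGD-R; 1 bar or point per library). OGD-R replicate 1 has 0.0775% ribosomal reads and lies alone on component 1, and NX/NG replicate 2 has the epithelial transcripts.

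The cells carried the transcripts of endothelium in both environments. The 12 endothelial markers summed to 1103 to 1372 RPKM under NX/NG and to 1130 to 1243 RPKM after OGD-R, and Cdh5, which encodes VE-cadherin, was the most abundant of them, at 449 to 602 RPKM. Markers of other cells of the brain were lower. Over the 6 libraries, 5 microglial and macrophage markers summed to at most 2.06 RPKM, 4 oligodendrocyte markers to at most 0.608 RPKM and 5 neuronal markers to at most 1.02 RPKM. The sums were 15.7 to 20.8 RPKM for 6 astrocyte markers, 20.5 to 25.8 RPKM for 8 of choroid plexus epithelium and 16.5 to 31.1 RPKM for 7 of the leptomeninges. The smooth muscle markers were not low. Acta2, the smooth muscle actin, lay between 743 and 1094 RPKM and Tagln, an actin-binding protein of smooth muscle, between 535 and 688 RPKM, and the 8 smooth muscle markers together summed to more than the 12 endothelial ones in all 6 libraries. The 8 pericyte markers summed to 17.8 to 24.8 RPKM, led by Pdgfrb at 10.1 to 14.9 RPKM, and 3 of them, Kcnj8, Abcc9 and Higd1b, stayed at or below 0.104 RPKM. Fibroblast markers, led by Col1a1 at 114 to 214 RPKM, were present in every library. In such a culture, fewer cells of a type and less RNA per cell cannot be told apart.

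No gene changed between the environments at an FDR of at most 0.05 (limma, Benjamini-Hochberg over 15357 genes, 0% called). After OGD-R, 608 genes were higher (3.96% of those tested) and 405 lower (2.64%) by an unadjusted p under 0.05, in all 6.6%, a threshold that 5% of genes pass where nothing differs. The 3 OGD-R libraries lay wholly above the 3 NX/NG libraries in 1124 genes (7.32%) and wholly below in 809 (5.27%). Without OGD-R replicate 1, limma again called 0 genes, and 834 genes were higher (5.43%) and 576 lower (3.75%) by that threshold, together 9.18%. The OGD-R libraries then lay wholly above NX/NG in 2268 genes (14.8%) and wholly below in 1848 (12%). Groups also come apart in some genes where nothing differs, and more often with 2 OGD-R libraries than with 3. The rise in these shares is therefore no measure of a stronger response. Without NX/NG replicate 2 the counts were 437 higher (2.85%) and 275 lower (1.79%), together 4.64%. Limma-voom on the recovered reads of all 6 libraries called 0 genes, with 524 higher (3.41%) and 444 lower (2.89%), together 6.3%. The genes below are therefore given by their values, and "higher" and "lower" state an order of levels with an unadjusted p, not a call. The leading genes were picked among genes whose groups do not overlap, so that their lack of overlap was fixed by that choice. Counts of gene list members over 6 libraries are to be set beside the 6.6% of all genes. With 1 library left out, they are to be set beside all 15357 genes in the same setting. There, 397 genes were higher and 302 lower without NX/NG replicate 1, and 456 and 330 without NX/NG replicate 3. The counts were 420 and 375 without OGD-R replicate 2 and 801 and 481 without OGD-R replicate 3.

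**Figure D2:**
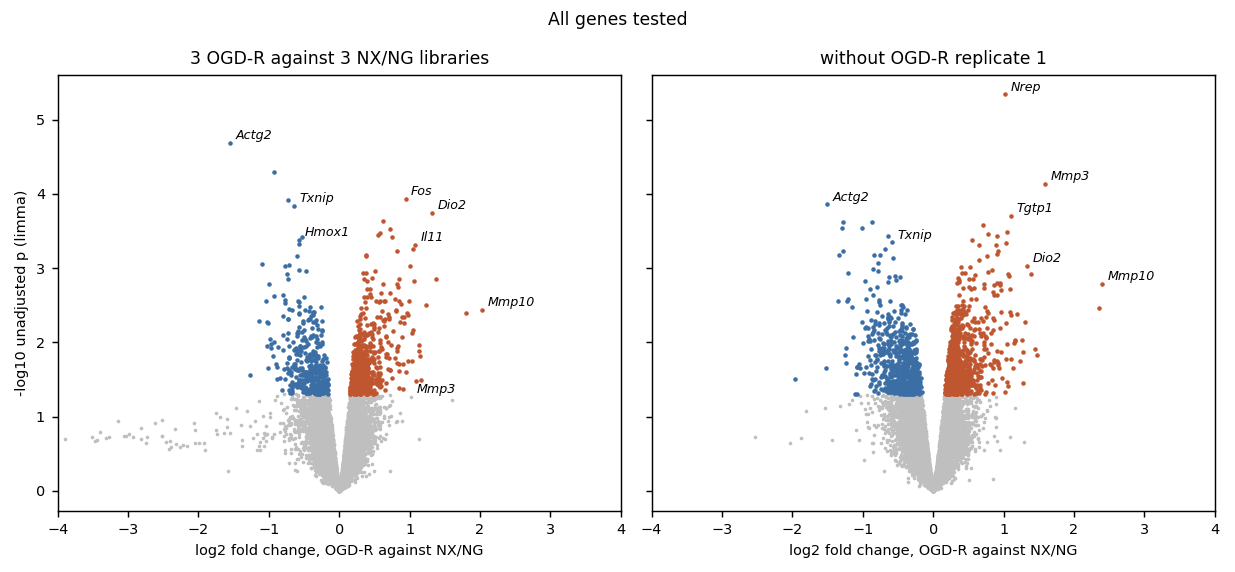
Each point is 1 of 15357 genes, with the log2 fold change of OGD-R against NX/NG on the x axis and -log10 of the unadjusted limma p on the y axis (orange, higher and blue, lower at p under 0.05). Left, 6 libraries, with Actg2 at the lowest p; right, without OGD-R replicate 1, where Nrep and Mmp3 have the lowest.

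The lowest p of all genes belonged to Actg2, the gamma actin of visceral smooth muscle. It was at 58.7, 43.4 and 36.3 RPKM in NX/NG replicates 1, 2 and 3 and at 14.7, 16.2 and 15.3 RPKM in OGD-R replicates 1, 2 and 3 (log2 fold change -1.55, SE 0.16, unadjusted p = 2.05e-05, limma FDR = 0.315). The 3 OGD-R libraries lay close together. All lay below the lowest NX/NG library, as the choice of leading genes required. Without OGD-R replicate 1 its log2 fold change was -1.51 (SE 0.19).

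Txnip, which encodes a thioredoxin-binding arrestin that limits glucose uptake, was lower after OGD-R in every library. It was at 38.3, 42.0 and 41.0 RPKM under NX/NG and at 23.8, 24.8 and 28.9 RPKM after OGD-R (log2 fold change -0.65, SE 0.09, unadjusted p = 0.000144, limma FDR = 0.444). The groups did not overlap, as the choice of leading genes required. Gm15441, an RNA on the opposite strand that overlaps Txnip in the GENCODE vM21 annotation, went from 23.6, 26.4 and 24.8 to 14.3, 13.8 and 17.2 RPKM (log2 fold change -0.73, SE 0.10). Since the sources used here do not state whether reads were counted by strand, the pair cannot be told apart. Arrdc4, the other arrestin of this kind that answers to glucose, was at 15.3, 18.3 and 19.6 RPKM and 14.5, 16.7 and 11.9 RPKM, with overlapping groups (log2 fold change -0.31, SE 0.14, unadjusted p = 0.0656). Of 7 tested genes of this group, Txnip was the only one with an unadjusted p under 0.05. The promoter of Txnip is shown because it holds several matches to CACGNG. This is a loose pattern for the E-box-like parts of a carbohydrate response element, the site of MondoA and ChREBP. It was read from the RefSeq promoter table (GRCm38.p6, chr3:96557707-96557956, plus strand), and the 250 bases before the start site are printed. Capitals mark the 4 matches to CACGNG on either strand, which begin 160, 85, 74 and 52 bases before the start.

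Txnip: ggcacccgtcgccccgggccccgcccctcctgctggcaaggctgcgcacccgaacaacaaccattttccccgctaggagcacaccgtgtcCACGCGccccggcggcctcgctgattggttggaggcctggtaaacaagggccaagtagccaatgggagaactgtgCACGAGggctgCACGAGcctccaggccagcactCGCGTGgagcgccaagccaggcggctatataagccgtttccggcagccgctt

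CACGNG was found on either strand in 23.5% of the 32851 promoters of the table, so that a match by itself is common. A match is a description of these letters and shows no binding.

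Other leading genes that were lower were Hmox1, Neat1, Dmpk, Ampd3 and Gm37565. Hmox1 encodes haem oxygenase 1, a target of NRF2 and of HIF, and was at 146, 136 and 153 RPKM under NX/NG and 92.7, 108 and 93.2 RPKM after OGD-R (log2 fold change -0.57, SE 0.09, unadjusted p = 0.000415, limma FDR = 0.49). Neat1, the RNA scaffold of nuclear paraspeckles, was at 18.8, 17.9 and 16.9 and 11.4, 13.5 and 12.2 RPKM (log2 fold change -0.53, SE 0.09, unadjusted p = 0.000383, limma FDR = 0.49). In both genes every OGD-R library lay below every NX/NG library, as the choice of leading genes required. The log2 fold change was -0.57 (SE 0.11) for Dmpk, a muscle kinase, -0.48 (SE 0.09) for Ampd3, an AMP deaminase, and -0.92 (SE 0.11) for Gm37565. The other 2 of the 10 leading lower genes have only an Ensembl identifier in the files.

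Among the leading genes that were higher, Gadd45a, a growth arrest and DNA damage gene, was at 20.02, 20.8 and 20.2 RPKM under NX/NG and 30.2, 34.3 and 27.3 RPKM after OGD-R (log2 fold change 0.58, SE 0.09, unadjusted p = 0.000332, limma FDR = 0.49). The NX/NG libraries lay within 1 RPKM of each other, and every OGD-R library was above them, as the choice of leading genes required. Hes1, a Notch target, was at 14.7, 15.1 and 14.3 and 18.6, 19.3 and 18.1 RPKM (log2 fold change 0.34, SE 0.07, unadjusted p = 0.00118, limma FDR = 0.618). Csrp2, a LIM protein of muscle and mesenchymal cells, had a log2 fold change of 0.46 (SE 0.09). Tmem258, a subunit of the oligosaccharyltransferase complex, and Hypk, a partner of the N-terminal acetyltransferase, had log2 fold changes of 0.37 (SE 0.07) and 0.38 (SE 0.07), with libraries that hardly varied within a group. Hypk overlaps Serf2 on the same strand in GENCODE vM21, and Gm19610 (0.55, SE 0.09) lies opposite Ereg, so that their reads may belong in part to the neighbour. Gm50373 had a log2 fold change of 0.82 (SE 0.14). Dio2, the deiodinase that activates thyroid hormone, was chosen after its values were seen. It was low but apart in every library, at 0.128, 0.119 and 0.0757 RPKM under NX/NG and 0.399, 0.463 and 0.389 RPKM after OGD-R (log2 fold change 1.32, SE 0.19, unadjusted p = 0.000179, limma FDR = 0.459).

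**Figure D3:**
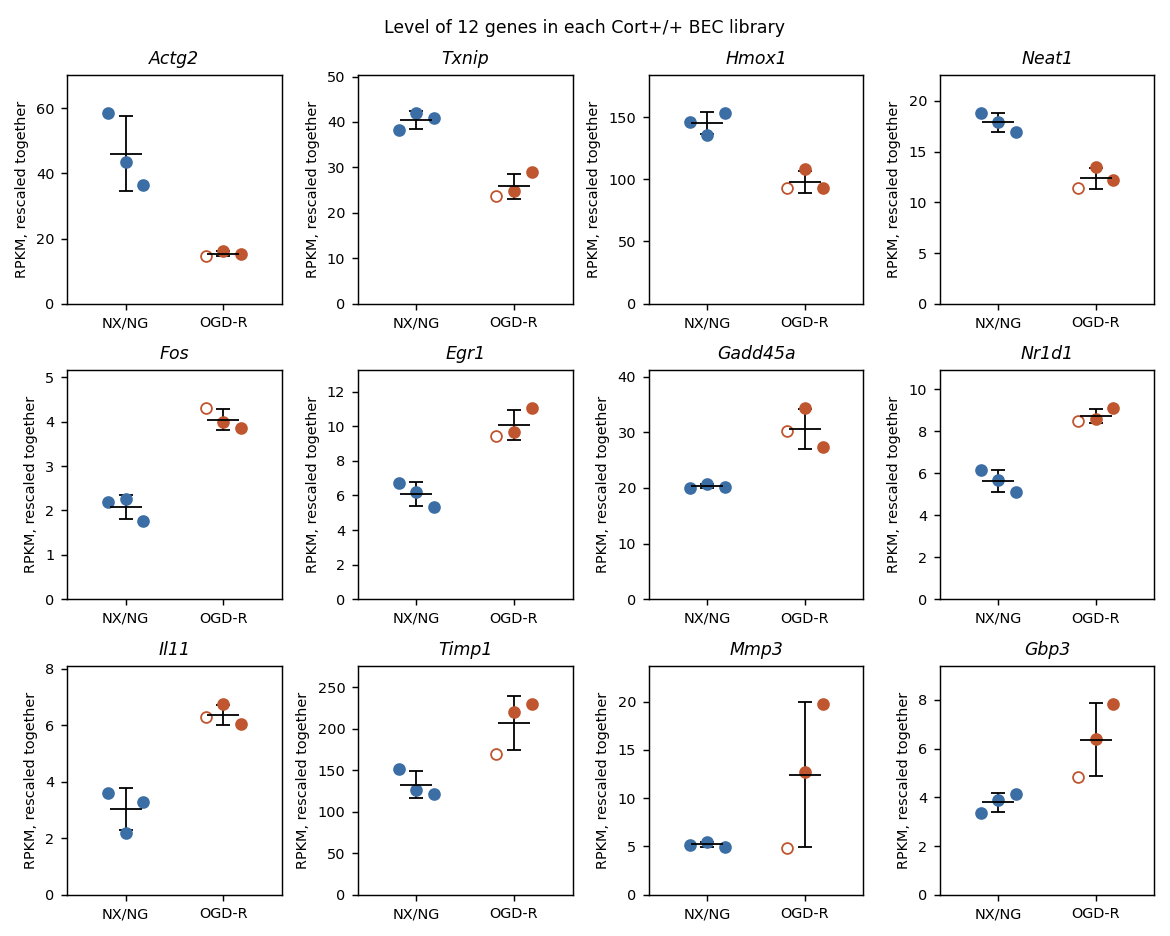
RPKM on the joint scale (y axis, from 0) of 12 genes in the NX/NG (blue) and OGD-R (orange) libraries, replicates 1 to 3 from left to right, with bars for the mean and SD of 3 libraries; the open circle is OGD-R replicate 1. In 11 genes the groups do not overlap, which for the leading genes among them was a condition of their choice. In Mmp3, OGD-R replicate 1 lies at 4.80 RPKM, below the lowest NX/NG library.

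Immediate early genes encode mostly transcription factors and are switched on within minutes of a stimulus without new protein synthesis. A minority of them was higher 20 h after oxygen, glucose and serum had returned. These came back together, and their parts cannot be told apart. Of 32 tested genes of the immediate early and MAPK feedback list, 8 were higher and 1 was lower at an unadjusted p under 0.05 (28.1% of the list, against 6.6% of all genes), with a median log2 fold change of 0.10 against 0.00 over all genes. Fos, a subunit of AP-1, was at 2.18, 2.26 and 1.76 RPKM under NX/NG and 4.30, 3.99 and 3.84 RPKM after OGD-R (log2 fold change 0.94, SE 0.13, unadjusted p = 0.000115, limma FDR = 0.444). Egr1, a zinc finger factor induced by growth factors, was at 6.70, 6.22 and 5.30 and 9.46, 9.65 and 11.04 RPKM (log2 fold change 0.72, SE 0.11, unadjusted p = 0.000293, limma FDR = 0.49). In both, the lowest OGD-R library was above the highest NX/NG library, which for Egr1, a leading gene, was a condition of its choice.

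The related factors Egr3 and Egr2 were at lower levels. Egr3 was at 0.507, 0.437 and 0.740 RPKM and 1.196, 1.08 and 1.54 RPKM (log2 fold change 1.07, SE 0.22), and Egr2 had a log2 fold change of 0.99 (SE 0.22). Nr4a1, an orphan nuclear receptor, was at 3.49, 2.35 and 2.84 and 5.08, 5.002 and 4.28 RPKM (log2 fold change 0.72, SE 0.16), and Junb, an AP-1 subunit, at 15.1, 18.1 and 14.4 and 24.9, 26.1 and 19.9 RPKM (log2 fold change 0.57, SE 0.13). Ier3 and Ier2 completed the higher members, with log2 fold changes of 0.36 and 0.39, and the groups of all 8 genes did not overlap. Over the whole list, the OGD-R libraries lay wholly above NX/NG in 8 members and wholly below in 2 (7.32% and 5.27% of all genes). The member that was lower, the antiproliferative gene Btg2, had a log2 fold change of -0.19 (SE 0.06). Other well-known members had small differences: the log2 fold change was 0.10 (SE 0.08) for Jun and -0.15 (SE 0.12) for Atf3. Dusp4, a phosphatase that ends MAPK signalling, had a log2 fold change of -0.54 (SE 0.33, unadjusted p = 0.146). Of all 32 members, 21 had a positive and 11 a negative log2 fold change. The count of higher members was 7 to 10 when any 1 of the 6 libraries was left out. Without OGD-R replicate 1 it was 8, with 2 lower and a median of 0.02, and without NX/NG replicate 3 the median was 0.05.

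Clock output differed in 2 genes. Nr1d1 (REV-ERB alpha), a repressor of the clock that lies opposite Thra, was at 6.16, 5.66 and 5.10 RPKM under NX/NG and 8.52, 8.59 and 9.11 RPKM after OGD-R (log2 fold change 0.63, SE 0.09, unadjusted p = 0.000234, limma FDR = 0.49). Dbp, a clock-driven transcription factor, was at 2.16, 2.22 and 1.71 and 2.89, 2.87 and 2.56 RPKM (log2 fold change 0.44, SE 0.14, unadjusted p = 0.0131). Both groups of libraries were apart in both genes, which for Nr1d1, a leading gene, was a condition of its choice. Over the list, the OGD-R libraries lay wholly above NX/NG in 3 members and wholly below in 2 (7.32% and 5.27% of all genes). Arntl, the activator that REV-ERB alpha represses, was at 2.22, 2.46 and 2.52 and 2.11, 1.52 and 2.01 RPKM, and Cry1 had a log2 fold change of -0.28; the unadjusted p of these 2 genes was 0.052 and 0.0593. Of the 16 clock genes tested, 2 were higher and 0 lower at an unadjusted p under 0.05 (12.5%, against 6.6% of all genes).

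Few members of the lists of HIF pathway and glycolysis genes differed at this time. Of 27 tested HIF pathway genes 1 was higher and 1 lower, and of 20 tested glycolysis and lactate genes 0 were higher and 0 lower at an unadjusted p under 0.05, with list medians of -0.01 and 0.04. With any 1 library left out, 0 to 1 HIF genes were higher and 1 to 2 lower, and 0 to 2 glycolysis genes were higher. The lower HIF gene was Hmox1, given above. The higher was Vegfa, the main angiogenic ligand, at 9.19, 9.91 and 7.17 RPKM and 13.0, 11.3 and 9.82 RPKM, with groups that overlapped (log2 fold change 0.38, SE 0.15, unadjusted p = 0.0379, and 0.115 without OGD-R replicate 1). The oxygen sensor gene Egln3 had a log2 fold change of -0.17 with a 95% interval from -0.39 to 0.05, and Ndrg1, a standard hypoxia marker, of 0.18 with an interval from -0.08 to 0.44. Among glycolytic genes, the interval was -0.03 to 0.71 for Hk2, -0.28 to 0.05 for Pgam1, -0.03 to 0.40 for Gapdh and -0.27 to 0.15 for Pkm. These intervals leave room for differences of that size. In the larger MSigDB hallmark sets, described at the end, more genes passed that threshold. Of 216 tested genes of the hypoxia set 14 were higher and 11 lower (11.6%, against 6.6% of all genes). Of 210 tested genes of the glycolysis set 15 were higher and 7 lower (10.5%). The set medians were -0.005 and 0.01.

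The inflammatory genes that were higher were mostly parts of the NF-kB pathway itself. Of 22 tested cytokine, chemokine and NF-kB genes, 6 were higher and 0 lower at an unadjusted p under 0.05 (27.3%, against 6.6% of all genes). The OGD-R libraries lay wholly above NX/NG in these 6 members and wholly below in 0 (7.32% and 5.27% of all genes). Il11, a cytokine of the IL-6 family, had the largest difference of them, at 3.62, 2.19 and 3.302 RPKM under NX/NG and 6.31, 6.76 and 6.05 RPKM after OGD-R (log2 fold change 1.08, SE 0.18, unadjusted p = 0.000489, limma FDR = 0.501). Rela, the p65 subunit, was at 35.1, 34.8 and 39.4 RPKM and 41.4, 45.4 and 44.1 RPKM (log2 fold change 0.26, SE 0.08). The log2 fold change was 0.32 for Relb and 0.23 for Nfkb2, subunits of the noncanonical pathway, 0.30 for its nuclear regulator Nfkbiz and 0.35 for Birc3, an inhibitor of apoptosis that NF-kB induces. Spp1 (osteopontin), the most abundant gene of the list, was at 810.2, 936 and 1042 RPKM and 724, 1382 and 1721 RPKM, with replicate 1 below and replicates 2 and 3 above every NX/NG library (unadjusted p = 0.275, and 0.00459 without replicate 1). Il33 was also highest in replicates 2 and 3, at 0.287, 0.0534 and 0.122 and 0.146, 1.90 and 0.643 RPKM, where replicate 1 lay among the NX/NG libraries. The count of higher members was 5 to 8 with any 1 library left out. Of 15 tested leukocyte adhesion molecules, by contrast, 0 were higher and 2 lower, Itga4, an integrin subunit, at 5.79, 7.80 and 6.86 and 5.46, 4.23 and 4.62 RPKM (log2 fold change -0.50, SE 0.14), and Cd34, a sialomucin of endothelium, with a log2 fold change of -0.38 (SE 0.12).

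Interferon-stimulated and guanylate-binding genes formed the list with the highest median. Of 33 tested genes, 10 were higher and 0 lower at an unadjusted p under 0.05 (30.3%), with a median log2 fold change of 0.27. Without OGD-R replicate 1 the counts were 17 and 0 (51.5%, against 9.18% of all genes) and the median was 0.46. Without OGD-R replicate 3, in which many of these genes were at their highest, 8 were higher and 2 lower, with a median of 0.19. In 22 of the 33 genes the OGD-R libraries stood in the order replicate 3, replicate 2, replicate 1 from high to low, and in 24 replicate 3 was the highest of all 6 libraries. Gbp3, a guanylate-binding GTPase, was at 3.34, 3.90 and 4.13 RPKM under NX/NG and 4.84, 6.39 and 7.84 RPKM after OGD-R (log2 fold change 0.71, SE 0.18, unadjusted p = 0.00483, limma FDR = 0.678), and Gbp2, of the same family, was at 9.73, 11.3 and 10.7 and 11.8, 15.5 and 17.8 RPKM (log2 fold change 0.49, SE 0.15, unadjusted p = 0.0135, limma FDR = 0.737). Tgtp1, a GTPase induced by interferon gamma, was at 1.21, 1.15 and 1.43 and 1.51, 2.77 and 2.90 RPKM (log2 fold change 0.82, SE 0.25), and 1.11 (SE 0.15) without replicate 1. Its near copy Tgtp2 may share its reads. Gbp5 went the other way among the libraries, at 0.611, 1.13 and 0.624 RPKM and 1.77, 1.40 and 1.44 RPKM, with replicate 1 the highest.

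The genes of antigen processing were among the higher members: Psmb8, a catalytic subunit of the immunoproteasome, was at 2.10, 1.78 and 2.63 and 2.74, 3.78 and 4.18 RPKM (log2 fold change 0.69, SE 0.20), and the log2 fold change was 0.61 for Psmb9, 0.35 for Psmb10 and 0.24 for the peptide transporter Tap1. The factor Irf1, which drives these genes, was at 6.97, 6.75 and 7.22 RPKM and 7.95, 8.198 and 8.98 RPKM (log2 fold change 0.26, SE 0.08), and Irgm1 had a log2 fold change of 0.24. B2m, the light chain of MHC class I and the most abundant gene of the list, overlapped between the groups, at 435, 441 and 594 and 408, 629 and 551 RPKM. The genes typical of type I interferon depended on the library. Isg15, a ubiquitin-like modifier, was at 3.18, 5.15 and 5.64 and 3.50, 7.54 and 13.8 RPKM, with an unadjusted p of 0.199 over 6 libraries and 0.00946 without replicate 1. Oasl2 was at 0.688, 0.641 and 1.29 and 0.860, 1.5 and 3.09 RPKM, and Rsad2 at 0.763, 0.534 and 1.26 and 0.405, 0.261 and 0.857 RPKM, with no order between the groups.

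**Figure D4:**
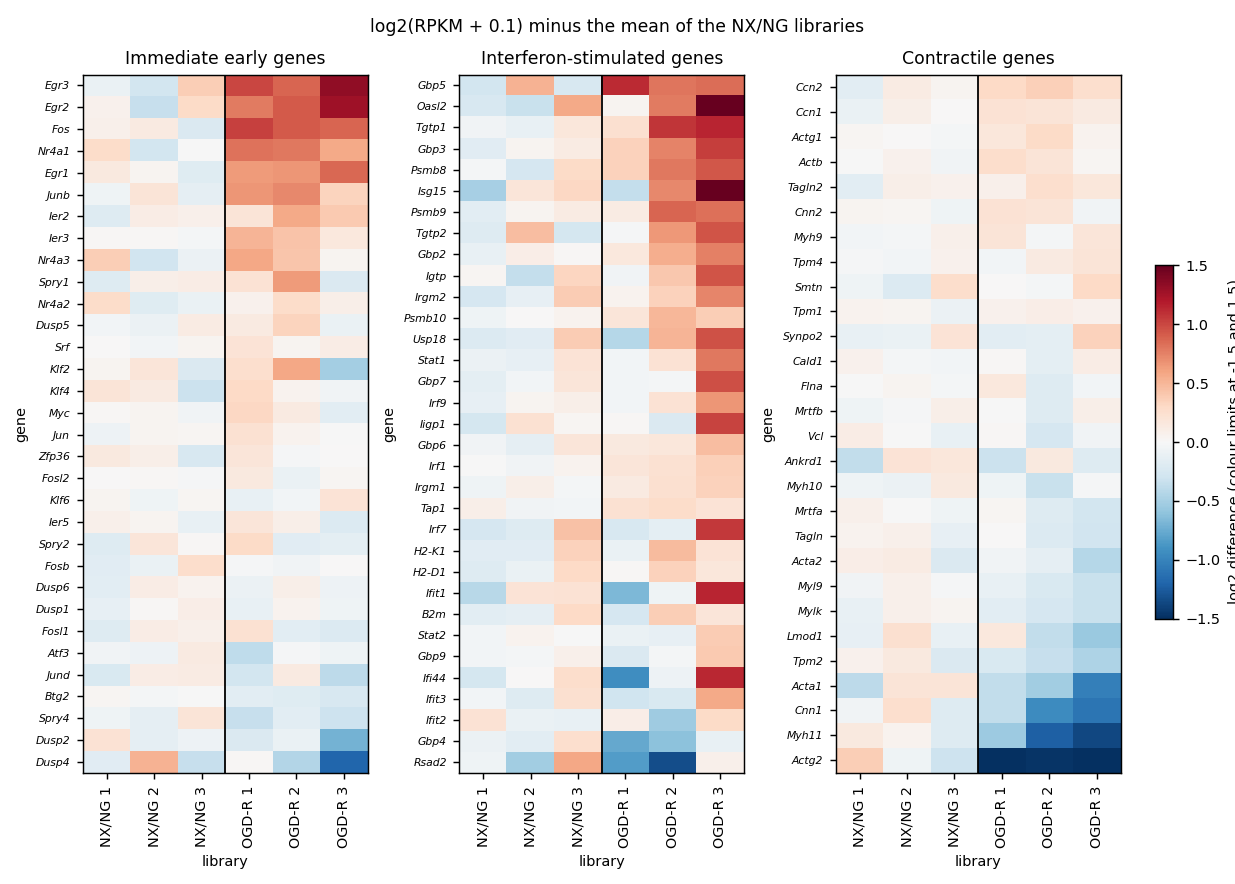
Colour gives log2(RPKM + 0.1) minus the mean of the 3 NX/NG libraries for every tested gene of 3 lists (rows) in the 6 libraries (columns; colours end at -1.5 and 1.5). Fos, Egr1, Egr2, Egr3, Nr4a1, Junb, Ier2 and Ier3 are higher in all 3 OGD-R libraries, and 11 of the 32 members of their list have a negative log2 fold change. Most interferon list members are highest in OGD-R replicate 3, and Actg2, Myh11 and Cnn1 are lowest after OGD-R.

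Matrix proteases and their inhibitors included the largest fold among the members of the lists. Of 24 tested genes, 4 were higher and 1 lower at an unadjusted p under 0.05 (20.8%). Timp1, an inhibitor of metalloproteinases, was at 151, 126 and 121 RPKM under NX/NG and 169.6, 220.1 and 230.3 RPKM after OGD-R (log2 fold change 0.63, SE 0.14, unadjusted p = 0.00282, limma FDR = 0.678). Mmp10 (stromelysin 2) was at 0.528, 0.0895 and 0.256 RPKM and 0.734, 1.82 and 1.69 RPKM (log2 fold change 2.03, SE 0.48, unadjusted p = 0.00367, limma FDR = 0.678), on 2 to 11 reads under NX/NG and 18 to 36 reads after OGD-R, with groups apart. The log2 fold change was 0.46 (SE 0.13) for Mmp28 and 1.03 (SE 0.34) for the collagenase Mmp13, whose groups overlapped through replicate 1. Mmp3 (stromelysin 1) was decided by that library: it was at 5.19, 5.44 and 4.99 RPKM under NX/NG and at 4.80, 12.7 and 19.8 RPKM after OGD-R, and its log2 fold change was 1.02 (SE 0.45, unadjusted p = 0.0539) with replicate 1 and 1.59 (SE 0.18, unadjusted p = 7.25e-05) without it. Adamts1, a protease that cleaves versican, was lower, at 16.6, 15.4 and 14.1 and 10.6, 12.6 and 12.2 RPKM (log2 fold change -0.38, SE 0.10).

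The promoters of both stromelysin genes are shown because each holds 1 match to TGANTCA on either strand (in capitals). This is a pattern for the AP-1 site of Fos and Jun dimers. The match begins 46 bases before the start in Mmp3 and 63 in Mmp10. They come from the RefSeq promoter table (GRCm38.p6, Mmp3 chr9:7445572-7445821 and Mmp10 chr9:7502092-7502341, both plus strand).

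Mmp3: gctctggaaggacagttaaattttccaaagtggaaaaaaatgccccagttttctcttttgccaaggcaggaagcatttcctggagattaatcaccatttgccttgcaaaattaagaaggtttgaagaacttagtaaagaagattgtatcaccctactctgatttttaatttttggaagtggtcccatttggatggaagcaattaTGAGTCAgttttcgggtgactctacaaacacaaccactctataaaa

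Mmp10: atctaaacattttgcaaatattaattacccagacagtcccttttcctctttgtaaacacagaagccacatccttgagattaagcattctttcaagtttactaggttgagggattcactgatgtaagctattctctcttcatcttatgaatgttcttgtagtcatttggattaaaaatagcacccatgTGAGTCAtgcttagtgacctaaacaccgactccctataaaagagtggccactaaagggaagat

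This motif was found in 6.75% of the 32851 promoters of the table. A match shows no binding, and whether Fos or Jun acts on these genes was not tested.

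Other matrix genes were mixed. Of 36 tested collagens and matrix glycoproteins, 3 were higher and 0 lower at an unadjusted p under 0.05 (median log2 fold change 0.04), and without OGD-R replicate 1 it was 3 and 3 (median -0.02). Col15a1, a collagen of vascular basement membranes, was at 25.3, 23.0 and 29.0 RPKM and 35.4, 33.4 and 42.1 RPKM (log2 fold change 0.52, SE 0.12, unadjusted p = 0.00279, limma FDR = 0.678), Col5a3, a fibrillar collagen chain, was at 1.92, 1.85 and 1.46 and 4.39, 2.91 and 2.72 RPKM, highest in replicate 1, and Nid2 had a log2 fold change of 0.36. Fn1 (fibronectin), the most abundant gene of the list, ranged from 1771 to 2539 RPKM with no order between the groups. Of 11 tested hyaluronan genes 1 was higher and 1 lower, and without OGD-R replicate 1 it was 1 and 3. Has2, a hyaluronan synthase, was at 1.44, 1.49 and 1.04 RPKM and 1.84, 2.60 and 3.11 RPKM (log2 fold change 0.86, SE 0.22), and Cemip, which binds hyaluronan for breakdown, at 21.5, 19.9 and 14.8 and 14.1, 11.9 and 12.4 RPKM (log2 fold change -0.53, SE 0.15), both with groups apart and in opposite order.

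Some contractile genes beyond Actg2 were lower too. Of 28 tested contractile and serum response factor genes, 7 were lower and 1 was higher at an unadjusted p under 0.05 (28.6%). The list as a whole was mixed, with 17 negative and 11 positive log2 fold changes and a median of -0.07. The OGD-R libraries lay wholly below NX/NG in 6 members and wholly above in 4 (5.27% and 7.32% of all genes). Myh11, the smooth muscle myosin heavy chain, was at 1.58, 1.47 and 1.23 RPKM under NX/NG and 0.943, 0.549 and 0.489 RPKM after OGD-R (log2 fold change -1.05, SE 0.24), and Cnn1 (calponin 1) at 13.4, 16.6 and 12.2 and 10.7, 7.21 and 6.46 RPKM (log2 fold change -0.80, SE 0.20). Both were highest of the OGD-R libraries in replicate 1, and still below every NX/NG library. Tpm2, a tropomyosin, was at 62.4, 66.0 and 51.1 and 50.6, 47.0 and 43.0 RPKM (log2 fold change -0.35), and the log2 fold change was -0.64 for skeletal actin Acta1, -0.25 for the myosin light chain kinase Mylk and -0.23 for the light chain Myl9. The gene that was higher, Ccn2 (CTGF), was at 478, 577 and 545 and 656, 678 and 632 RPKM (log2 fold change 0.30, SE 0.13). The count of lower members was 3 without NX/NG replicate 2 and without OGD-R replicate 3, 4 without NX/NG replicate 3 and 8 without OGD-R replicate 1. Of all 15357 genes, 275, 481, 330 and 576 were lower in these settings, in that order. Beside these genes, the 8 smooth muscle markers as a whole summed to 1516 to 1853 RPKM under NX/NG and to 1306 to 1659 RPKM after OGD-R, ranges that overlap. Acta2 was at 1069, 1094 and 858 and 963, 912 and 743 RPKM (log2 fold change -0.21, SE 0.18). Of the 6 smooth muscle markers tested, 3 were lower, and these 3 (Actg2, Myh11 and Cnn1) also stand in the contractile list. Their share of the cells was not tested.

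The stress lists held members in both directions. Of 35 tested genes of the unfolded protein and integrated stress response, 5 were lower and 2 higher at an unadjusted p under 0.05 (20%, against 6.6% of all genes). The lower ones belong to amino acid supply and to the ATF4 programme: Slc7a5, an amino acid transporter, was at 14.7, 13.4 and 16.1 RPKM and 10.2, 10.6 and 12.3 RPKM (log2 fold change -0.41, SE 0.10), and the log2 fold change was -0.34 for Chac1, -0.40 for the cystine transporter Slc7a11, -0.21 for asparagine synthetase Asns and -0.20 for Psat1 of serine synthesis. Xbp1, a transcription factor of the unfolded protein response, was at 22.9, 22.5 and 24.9 and 25.3, 29.0 and 27.5 RPKM (log2 fold change 0.22, SE 0.08), and Casp12 had a log2 fold change of 0.38. The count of lower members was 1 without OGD-R replicate 3, 2 without NX/NG replicate 2 and 3 without NX/NG replicate 1, and no member was higher without NX/NG replicate 1, NX/NG replicate 2 or OGD-R replicate 2. Of 22 NRF2 and antioxidant genes, 0 were higher and 2 lower, the subunits of the enzyme that limits glutathione synthesis: Gclm at 11.6, 12.7 and 12.4 and 10.6, 10.7 and 8.65 RPKM (log2 fold change -0.29, SE 0.10) and Gclc with -0.32 (SE 0.13). The count of lower members was 0 without NX/NG replicate 2 and without OGD-R replicate 3, 1 without NX/NG replicate 1 and 4 without OGD-R replicate 1. Heat shock genes held 2 higher of 16, Hspa1a, an inducible HSP70, at 0.502, 0.442 and 0.238 and 1.18, 0.644 and 0.653 RPKM and Cryab with a log2 fold change of 0.24, and 0 were higher without NX/NG replicate 3 and 1 without NX/NG replicate 2, OGD-R replicate 1 or OGD-R replicate 2.

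Among 25 tested p53 targets and cell death genes, 4 were lower and 2 higher at an unadjusted p under 0.05 (24%, against 6.6% of all genes). Bbc3 (PUMA), a p53-induced killer protein, was at 7.56, 7.55 and 7.59 RPKM and 6.48, 6.38 and 5.44 RPKM (log2 fold change -0.31, SE 0.09), and Trp53inp1, Plk3 and Plk2 had log2 fold changes of -0.28, -0.26 and -0.19. Gadd45a, given above, and Bak1 (0.16) were higher. The count of lower members was 1 without OGD-R replicate 2, and 2 without NX/NG replicate 1, NX/NG replicate 2 or OGD-R replicate 3. Of 32 cell cycle genes, 5 were higher and 1 lower (18.8%). Top2a, the topoisomerase of dividing cells, was at 15.2, 17.0 and 14.5 and 21.6, 17.7 and 19.8 RPKM (log2 fold change 0.33, SE 0.10), and the log2 fold change was 0.44 for Aurkb, 0.27 for Cdk1, 0.18 for Ccna2 and 0.27 for Birc5. The G1 cyclin Ccnd1 was lower, at 143, 175 and 216 and 128, 134 and 139 RPKM (log2 fold change -0.40, SE 0.15). Without NX/NG replicate 3, in which Ccnd1 was at its highest, 2 members were higher and 0 lower, and 3 were higher without NX/NG replicate 1.

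A minority of the barrier genes passed an unadjusted p of 0.05. Of 21 tested genes of tight, adherens and gap junctions, 2 were lower and 1 higher (14.3%, against 6.6% of all genes). Among the 21 genes, 16 had a negative log2 fold change, and the median was -0.06. With each library left out in turn, 1 to 3 were lower and 0 to 1 higher. Gja4 (connexin 37) was at 16.3, 21.1 and 17.1 RPKM under NX/NG and 14.2, 13.8 and 9.54 RPKM after OGD-R (log2 fold change -0.55, SE 0.17), Cgnl1, a cingulin of junctions, had a log2 fold change of -0.26, and Marveld2 (tricellulin) of 0.47, with overlapping groups. Cldn5, the main claudin of the barrier, was at 108, 109 and 134 and 109, 131 and 113 RPKM, with a log2 fold change of 0.01 and a 95% interval from -0.26 to 0.29, and for Ocln (occludin) the interval was -0.54 to 0.06. Of 21 tested transporters, 1 was lower and 1 higher at an unadjusted p under 0.05 (9.52%). Among the transporters, 17 had a negative log2 fold change, and the median of -0.13 was the lowest of the 26 lists. Without OGD-R replicate 1, 4 were lower and 1 higher (23.8%, against 9.18% of all genes), with a median of -0.14. Slco4a1, an organic anion transporter, was at 5.31, 5.59 and 6.11 and 3.89, 3.89 and 3.298 RPKM (log2 fold change -0.61, SE 0.11, unadjusted p = 0.00068, limma FDR = 0.533), and Slco1a4, the carrier of the same family that marks brain endothelium in vivo, was low, at 0.168, 0.252 and 0.124 and 0.405, 0.366 and 0.478 RPKM (log2 fold change 0.90, SE 0.22). Both groups of libraries were apart in both carriers, in opposite order.

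Of 18 tested genes of vascular tone and coagulation, 3 were lower and 3 higher at an unadjusted p under 0.05 (33.3%, against 6.6% of all genes). Nos3, the endothelial nitric oxide synthase, was at 27.5, 32.7 and 34.7 RPKM and 26.1, 24.6 and 24.1 RPKM (log2 fold change -0.34, SE 0.10). Procr, the receptor of protein C, was at 96.2, 128 and 106 and 82.6, 89.0 and 57.8 RPKM (log2 fold change -0.54, SE 0.18), and Ednrb, an endothelin receptor, was below 1 RPKM in every library, at 0.407, 0.506 and 0.475 and 0.115, 0.387 and 0.0189 RPKM. The higher ones were S1pr3, a receptor of sphingosine 1-phosphate (0.75), Ptgs1 (0.33), a cyclooxygenase, and Vwf, at 10.3, 15.1 and 8.61 and 20.8, 15.2 and 14.1 RPKM (log2 fold change 0.57, SE 0.22). Without OGD-R replicate 1 the unadjusted p was 0.0866 for Ptgs1 and 0.109 for Vwf. With each library left out in turn, 0 (without OGD-R replicate 2) to 2 members were higher and 1 (without NX/NG replicate 2) to 3 lower. Of 28 endothelial identity and transcription factor genes, 1 was higher, the forkhead factor Foxf2 (0.25, SE 0.08), and 1 lower, Ets2 (-0.24, SE 0.10). Of 27 angiogenic genes 1 was higher, the tip cell gene Esm1, and 0 lower. The counts of the endothelial identity and angiogenic lists were at most 2 in either direction with any 1 library left out.

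Cholesterol and fatty acid synthesis (27 genes) and autophagy and lysosome genes (20) held 0 higher and 0 lower members at an unadjusted p under 0.05, and without OGD-R replicate 1 the first of these lists held 2 lower. Of 10 tested mitochondrially encoded subunits 1 was lower, mt-Co3, at 2.85, 2.06 and 3.93 and 1.43, 2.11 and 1.75 RPKM, whose groups overlap. Their list median was 0.01 with OGD-R replicate 1, the library with 1.21% mitochondrial reads against 1.71% to 2.19% in the others, and 0.22 without it. Cort itself, which encodes cortistatin, had 2, 1 and 1 reads under NX/NG and 0, 0 and 1 reads after OGD-R, at or under 3 reads in each library, so that no fold is given. Of its receptors, Sstr2 was at 0.540, 0.324 and 1.19 RPKM and 0.0983, 0.284 and 0.490 RPKM and Sstr4 at 1.10, 0.974 and 0.742 and 0.888, 0.732 and 0.907 RPKM, with overlapping groups.

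**Figure D5:**
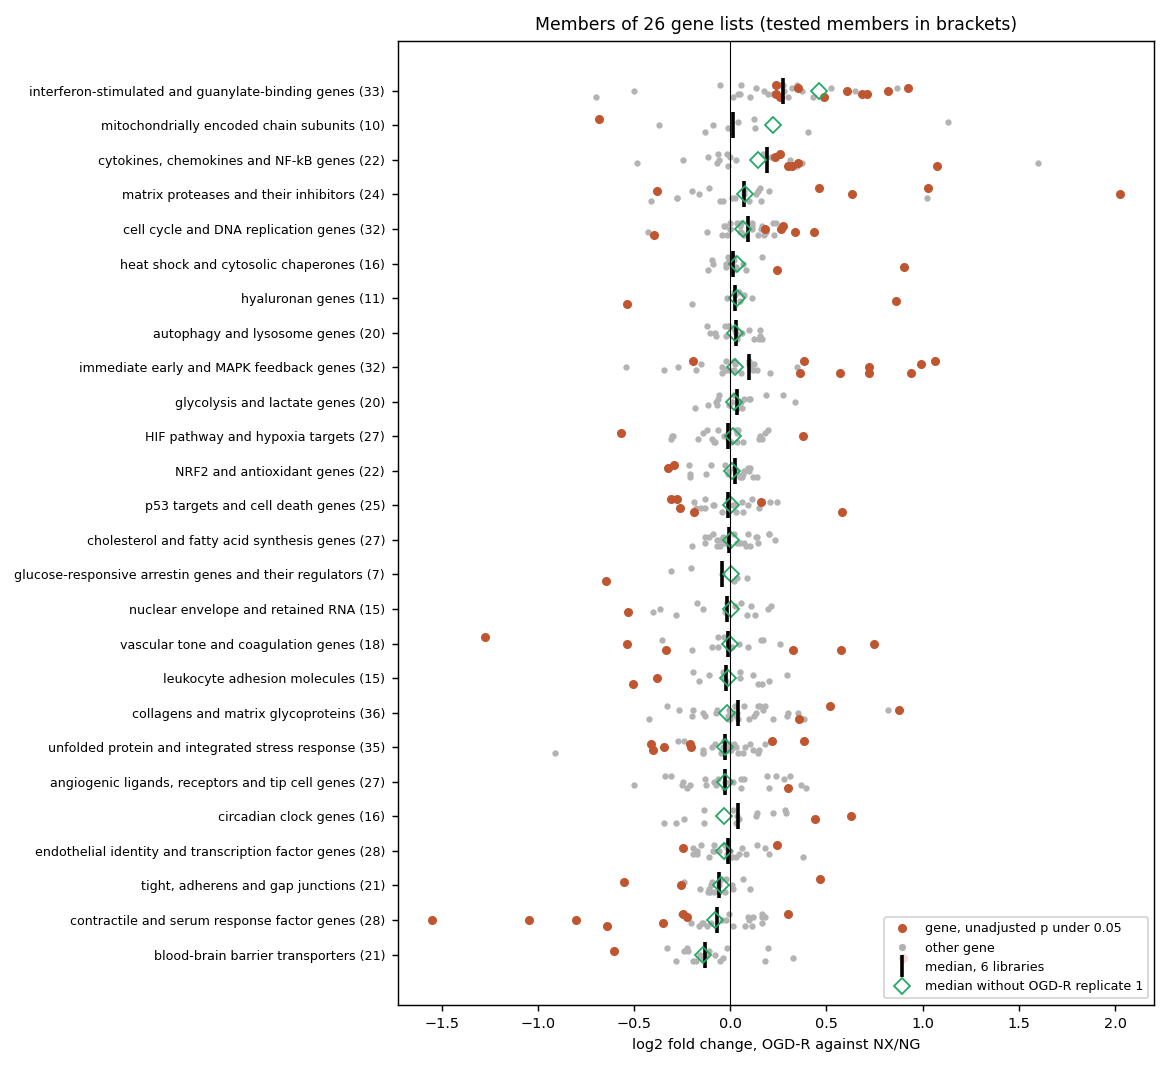
Each point is a tested member of 1 of 26 gene lists (y axis), with its log2 fold change of OGD-R against NX/NG over 6 libraries on the x axis (orange, unadjusted p under 0.05); black ticks are list medians over 6 libraries and green diamonds without OGD-R replicate 1. The interferon list has the highest median, 0.27, and 0.46 without that library, and 23 of the 26 medians lie within 0.1 of 0.

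The genes with the lowest p once OGD-R replicate 1 was left out were in part other genes. Nrep, a neuronal regeneration protein that is also expressed in stromal cells, was at 10.1, 9.82 and 9.69 RPKM under NX/NG and 12.6, 19.7 and 20.6 RPKM after OGD-R, and had a log2 fold change of 1.02 (SE 0.07, unadjusted p = 4.56e-06, limma FDR = 0.07) without replicate 1 and 0.79 (SE 0.18) with it. It was the only gene called by limma-voom without that library (FDR = 0.0100). Replicates 2 and 3 lay close together and replicate 1 lay between them and NX/NG. Timp1 and Mmp3, given above, and Gm2000 (0.90) and a gene with only an Ensembl identifier made up the other higher genes by that rule. The lower ones were Actg2, Gm37565, Cnn1 and the microRNA genes Mir1291 (-1.30) and Mir1306 (-0.65), short genes with 5 to 55 reads per library. Mgp, an inhibitor of calcification that was picked after its values were seen, gave the plainest picture of replicate 1, at 181, 220.4 and 242 RPKM under NX/NG and 134, 387 and 490.2 RPKM after OGD-R, where that library was the lowest of the 6 and the others were the highest.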

How the data were processed

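RNA-seq libraries of 3 NX/NG and 3 OGD-R cultures of Cort+/+ BECs were used, grouped by the sample titles. The authors' pipeline, reanalyzerGSE, was set to keep genes of low expression, and its RPKM values were deposited in one table per environment. The submitters' processing notes name edgeR. The aligner, genome build, annotation and strand setting are not given in the sources used here, and the labels and the paper's methods name different library kits and read numbers. Per the file headers, further columns hold the authors' log2 fold changes, logCPM, p-values, FDR and group means for the knockout comparison, and 10 hold expression categories. None of these was used, nor were the 4 knockout columns.

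The product of RPKM and length gave whole reads (within 0.05) for 100% of values. Over genes listed in both tables, these reads were normalised jointly by TMM (trimmed mean of M values, with 30% of M and 5% of A values trimmed), RPKM was computed anew, and log2(RPKM + 0.1) was fitted with limma 3.58.1 in R 4.3.3 (trend on mean expression, two-sided) over genes with a mean of at least 10 reads. Fold changes on this scale understate the change of low genes. P-values were adjusted by Benjamini-Hochberg over all genes tested, with an FDR of at most 0.05 as the call. The code was tested on simulated data. Intervals are 95%, and p-values rest on 3 cultures per group. Counting error was not estimated apart, and it weighs most on genes with few reads.

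Named genes were the 10 with the lowest p in each direction among genes at 5 RPKM or more on average with groups apart, the 4 with the lowest p and the most abundant member of each of 26 lists, the 5 in each direction with the lowest p without OGD-R replicate 1, markers, and Cort with its receptors. Other list members were named after their values were seen. One gene that this rule names is not reported here. The samples, the lists and the tests were chosen with earlier results of these data known, and motifs and promoters after the values were seen. Alternatives were other pseudocounts, filters, scalings and tests, the replicate number as a block, and each library left out. Tables and figures were made with Python 3.11.15, pandas 2.3.3, numpy 2.4.6 and matplotlib 3.10.9.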

Additional observations from a re-analysis of the deposited data

How the results depend on the processing

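The number of calls was 0 in 14 of the 16 alternatives. Without a filter on low values, 9 of 27075 genes passed the FDR (3 higher and 6 lower), each with a mean of at most 1.83 reads, and 671 genes were lower by an unadjusted p under 0.05. In limma-voom without OGD-R replicate 1, 1 gene passed, Nrep, and 651 genes were lower. With RPKM as deposited, each table scaled on its own, the median of all genes moved to 0.07 from 0.00 on the log2 scale and the counts to 1371 higher and 187 lower, so that 88.0% of these genes were higher against 60.02% over the 6 jointly scaled libraries. With each library left out in turn, calls stayed at 0, the genes higher numbered 397 (without NX/NG replicate 1) to 834 (without OGD-R replicate 1) and those lower 275 (without NX/NG replicate 2) to 576 (without OGD-R replicate 1).

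With the replicate number as a block there were 0 calls, 621 genes higher and 487 lower. No source used here says that a number marks shared animals, and the deviations of same-numbered libraries from their group means correlated at -0.04, -0.14 and 0.34, which does not pair the libraries. Whether a number marks a shared pool of cells is not known. Not every library correlated best with its own number.

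Of 116 genes with a fold change in the text, 2 turned direction in at least 1 of the alternatives that could be fitted. For Cldn5 the log2 fold change was -0.0139 with quantile normalization and ranged from -0.0661 to 0.115 with each library left out. For Pkm it was 0.0120 with RPKM as deposited. The cause was not tested. Genes listed in only 1 table, and those under the minimum of 10 reads, are outside what this depth can compare.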

Other observations

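The deposited tables annotate each gene with the MSigDB hallmark sets, which were read after the data were seen and are described here by counts alone. The sets given here were picked from 50 after their counts were seen. In 20 of the 50 sets, more than 10% of the tested genes had an unadjusted p under 0.05, against 6.6% of all genes. In the DNA repair set 18 of 151 tested genes were higher and 1 lower after OGD-R at an unadjusted p under 0.05, and in the E2F target set 19 of 213 were higher and 0 lower (3.96% higher and 2.64% lower over all genes). Their differences were small, with medians of 0.08 and 0.07 on the log2 scale. Gtf2f1, a subunit of the general transcription factor TFIIF in the DNA repair set, was at 26.7, 26.9 and 26.3 RPKM under NX/NG and at 30.6, 33.5 and 31.5 RPKM after OGD-R, and Alyref, an mRNA export factor, had a log2 fold change of 0.25 (SE 0.07). H2az2, a histone variant in the E2F set, was at 10.28, 10.29 and 10.30 RPKM under NX/NG, almost equal in the 3 cultures, and at 12.1, 13.5 and 12.6 RPKM after OGD-R, with groups apart.

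In the set of TNF signalling through NF-kB, 24 of 201 genes were higher and 6 lower, and in the apoptosis set 23 of 166 were higher and 7 lower. Areg (amphiregulin), a ligand of the EGF receptor in the first of these, was at 1.36, 1.27 and 2.03 RPKM under NX/NG and 3.295, 3.36 and 2.79 RPKM after OGD-R (log2 fold change 1.00, SE 0.19). The p53 set stood the other way, with 9 of 226 higher and 20 lower, and without NX/NG replicate 2 it was 5 and 11. In that setting 2.85% of all genes were higher and 1.79% lower. Of the lower members, S100a4, a calcium-binding protein of motile cells, was at 289, 303 and 308 RPKM under NX/NG and 204, 248 and 218 RPKM after OGD-R (log2 fold change -0.43, SE 0.10), and Cbr2, a carbonyl reductase, had a log2 fold change of -0.72 (SE 0.15). Genes such as Fos, Gadd45a and Junb belong to several of these sets, so that the sets are not separate counts. Other sets with unequal counts were the G2M checkpoint (20 higher and 2 lower of 224), the interferon gamma response (20 and 3 of 193), the interferon alpha response (12 and 3 of 112), oxidative phosphorylation (12 and 2 of 180, and 1 and 1 without NX/NG replicate 2), apical junction (4 and 12 of 213) and myogenesis (5 and 14 of 210). The haem metabolism set had 4 higher and 14 lower of 206, and 3 and 4 without NX/NG replicate 2. Among its higher members, Bpgm, which makes 2,3-bisphosphoglycerate, was at 7.84, 9.22 and 7.32 RPKM under NX/NG and 12.4, 14.4 and 10.9 RPKM after OGD-R (log2 fold change 0.62, SE 0.13).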
